A study of Rattus norvegicus with 6 samples.

Results

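The genes of fatty acid oxidation and of the peroxisome were followed in 6 Affymetrix arrays of NRK-52E cells, an established rat line with features of the kidney tubule. Of 55 genes listed by symbol, 54 were measured, out of 14217 genes in all. Where several probe sets are annotated to a gene alone, the one with the highest average signal stands for it. Acaa1a, a peroxisomal thiolase gene, shares its probe set with Acaa1b in that annotation and was not analysed here. The list holds 18 genes that take up, bind and activate fatty acids or move them by carnitine, 20 of mitochondrial oxidation, 14 of the peroxisome (13 measured) and the 3 PPAR receptors.

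In both groups the cells had been given TGF-β1 at 10 ng/mL for 24 h, a cytokine that drives epithelial cells towards a mesenchymal state. In one group, the AMPKα2 shRNA group (3 arrays, called hairpin arrays), a lentivirus delivered a hairpin that targets AMPKα2, the α2 form of the catalytic part of the energy-sensing kinase AMPK. The other group (3 control arrays) received a control lentivirus. Cells kept free of TGF-β1 were not analysed here, and the labels call the arrays of a group biological replicates without saying whether they came from separate infections, so p-values measure the spread between these arrays. The cells are 1 line in culture, and transcripts, not fatty acid use, were measured.

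Fatty acids enter cells with the help of carriers and are bound by small cytosolic proteins, and acyl-CoA synthetases link them to coenzyme A. Carnitine palmitoyltransferases then carry long chains across the mitochondrial membranes, where rounds of dehydrogenation, hydration, a further oxidation and thiolysis shorten them, with electrons passed to the respiratory chain through the electron transfer flavoprotein. Peroxisomes shorten very long and branched chains and hold catalase, and peroxins build them. PPAR receptors switch on many of these genes when they bind lipids, and the proximal tubule depends on fatty acid oxidation for its energy. AMPK is known to favour entry of fatty acids into mitochondria by phosphorylating acetyl-CoA carboxylase.

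Values were deposited on the log2 scale, so that a difference of 1 is a 2-fold change, and all changes below are AMPKα2 shRNA minus control. The groups differed across most of the array: 85.1% of all genes passed the test (limma, adjusted p under 0.05), 43.6% higher and 41.5% lower. The SD over probe sets was 1.76 to 1.82 on the hairpin arrays and 2.17 to 2.19 on the control arrays, so that low values stood higher and high values lower with the hairpin. The median change of all genes was 0.81 at control levels between 5 and 6 and -0.90 between 9 and 10. Each change was therefore also computed after quantile normalization, cyclic loess and median centring, which moved the median change of all genes from 0.05 to 0.16, 0.09 and -0.17. Prkaa2, the gene of the targeted AMPKα2, read 6.64, 6.76 and 6.49 on the hairpin arrays and 6.83, 6.79 and 6.89 on the control arrays. Its change of -0.21 did not pass (limma, adjusted p = 0.0552), nor did it at -0.05 with quantile normalization or at -0.15 with cyclic loess, while -0.42 after median centring did (limma, adjusted p = 0.00145). The deposited change passed without AMPKα2 shRNA replicate 2 (-0.27) and, at -0.21, with the lowest 25% of genes removed or with each gene's probe sets averaged. The groups are named as their labels name them. Precision is limited by having 3 arrays a group, for which the smallest two-sided p of an exact permutation test is 0.1.

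Members moved in both directions. Of the 54, 19 rose, 26 fell and 9 missed the threshold, and the median change was -0.14 against 0.05 for all genes. Risers made up 35.2% of the members, where 43.6% of all genes rose, and the fallers 48.1%, where 41.5% of all genes fell. With cyclic loess there were 22 risers (40.7%, against 40.2% of all genes) and 16 fallers (29.6%, against 31.5%), and the median became 0.10. With quantile normalization there were 25 risers (46.3%, against 43.8%) and 13 fallers (24.1%, against 28.9%). With median centring 13 members rose, where 35% of all genes did, and 29 fell, where 48.2% of all genes did. The balance of rises and falls thus turned with the scaling. In all 4 scalings, 23 members passed in 1 direction, where 52% of all genes did, 10 higher (18.5%, against 25.5% of all genes) and 13 lower (24.1%, against 26.4%), and these are the changes described first in each compartment. At least 2-fold, 3 members rose (Acad11, Pex19 and Ppara; 5.56%, against 11.6% of all genes) and 10 fell (18.5%, against 18.6%). On the deposited values the hairpin arrays all lay above the control arrays in 21 of 54 members (44.5% of all genes did so) and all below in 26 (48.1%, against 42.5% of all genes), so that the groups did not overlap in 87% of members and 87.1% of all genes.

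**Figure D1:**
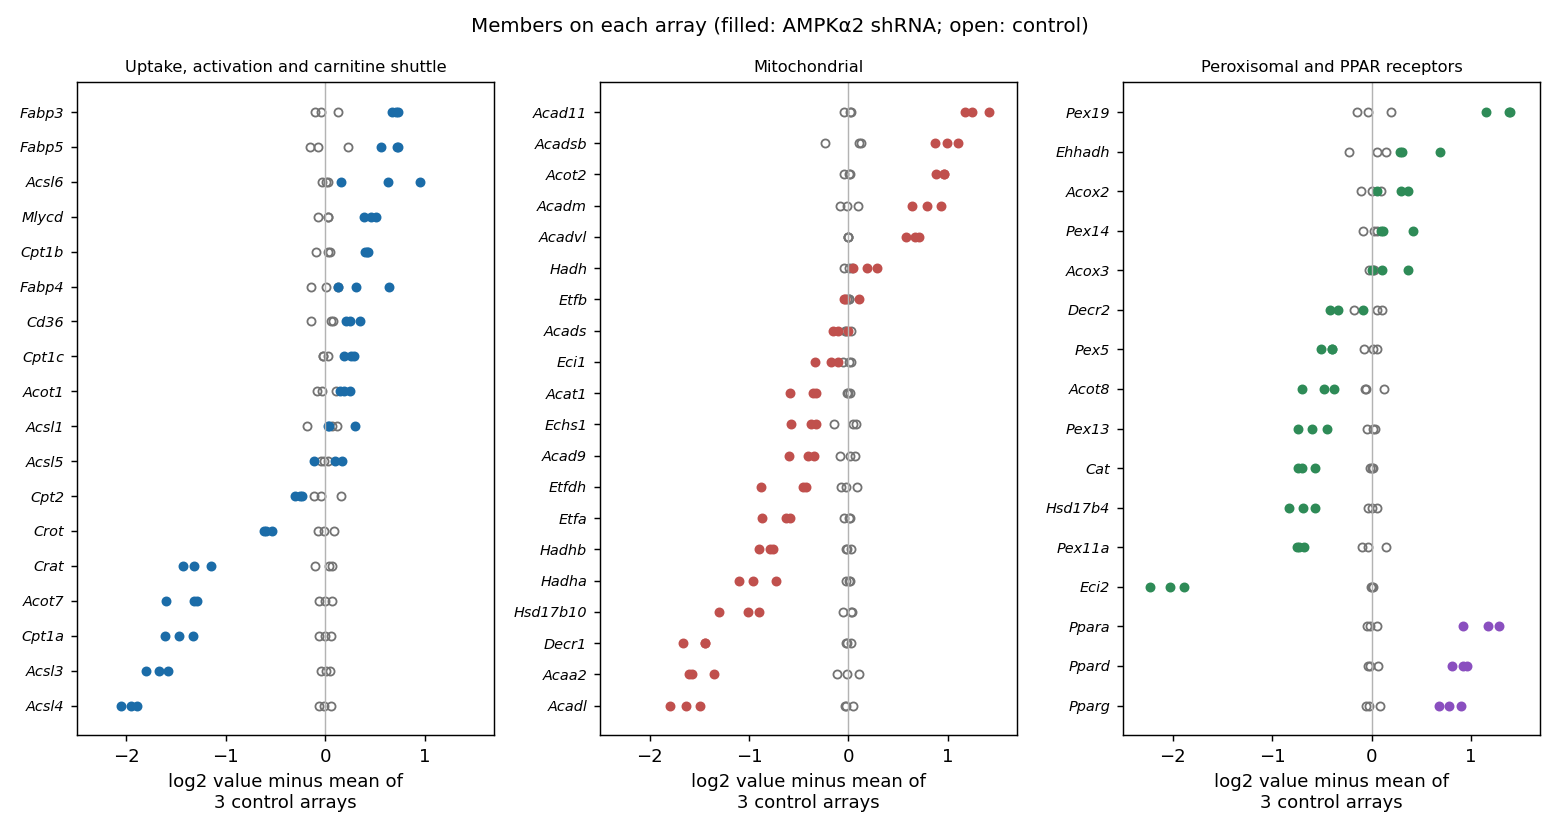
Deposited log2 values of the 54 measured members on each array, minus the mean of the 3 control arrays (horizontal axis, log2 units); filled points are hairpin arrays and open points control arrays, with green for peroxisomal genes and purple for the PPAR receptors in the right panel. Eci2 lies lowest, with a change of -2.06, and Pex19 highest, with 1.31, while control arrays stay close to 0.

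Sequences upstream of the members were taken from RefSeq (build GRCr8), in windows of 250 bases before to 50 bases after each gene's start, which 47 of the 55 listed genes have. No entry was found for Ppard, Fabp4, Fabp5, Cpt1b, Cpt1c, Acadl, Acaa2 and Decr1. The element bound by PPAR with its partner RXR is a direct repeat, searched here on both strands as AGGTCA, any 1 base and AGGTCA again. No member window held it exactly, as 0.0538% of all 33469 windows did. With 1 mismatch allowed, 2 members held it, Acadvl and Acot8 (4.26%), against 0.439% of all windows and 0.398% of the windows of protein-coding genes. Their last 80 bases before the start are shown because they hold the closest matches to a PPAR element among the members, with the match in capitals, on the strand of the gene.
Acadvl (chr10:55236706-55236785, minus strand): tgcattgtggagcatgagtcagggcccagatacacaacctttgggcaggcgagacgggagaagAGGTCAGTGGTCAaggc
Acot8 (chr3:173962189-173962268, minus strand): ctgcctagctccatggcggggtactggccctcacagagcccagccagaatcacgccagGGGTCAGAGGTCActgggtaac
Counted from the first letter of the searched repeat, the mismatch was A8T in Acadvl and A1G in Acot8. The matches run from 17 to 5 bases before the start of Acadvl and from 22 to 10 before that of Acot8. A match is a likeness of letters and does not show that a receptor binds there. AGGTCA alone, which lies inside the full repeat, was found in 9 members (19.1%, against 16.2% of all windows and 14.2% of those of protein-coding genes). GGGCGG, a letter run bound by Sp1, was found in 33 members (70.2%), against 33.1% of all windows and 41.8% of the windows of protein-coding genes. CCAAT was found in 21 members (44.7%, against 37.5% of all windows and 38% of those of protein-coding genes). CACGTG, the E-box core, was in 0 members, 6.42% of all windows and 7.02% of those of protein-coding genes.

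The 3 PPAR receptors, ligand-activated transcription factors of lipid metabolism, all rose, as 43.6% of all genes did, and they did so in all 4 scalings, as did 25.5% of all genes and 43.7% of those with a control level under 7, where Ppara and Pparg lie. Ppara, which drives fatty acid oxidation genes, read 6.18, 5.93 and 6.29 on the hairpin arrays and 4.99, 5.07 and 4.96 on the control arrays. That is a rise of 1.13 (SE 0.10, limma, adjusted p = 1.92e-06), and of 0.60 after cyclic loess. Ppard, the widely expressed receptor, read 8.30, 8.41 and 8.45 against 7.45, 7.47 and 7.56 on the control arrays. It rose by 0.89 (SE 0.08, adjusted p = 2.36e-06 in limma), and by 1.49 after cyclic loess. Pparg, the receptor best known from fat cells, read 4.57, 4.79 and 4.67 against 3.86, 3.98 and 3.83. It rose by 0.79 (SE 0.09, limma, adjusted p = 1.05e-05), and by 0.30 after cyclic loess. In each of these genes every hairpin array lay above every control array. Genes of like control level had median changes of 0.81 for Ppara, -0.39 for Ppard and 0.52 for Pparg, so that Ppard went against the trend of its level and the other two stood above theirs by 0.32 and 0.27. The second probe set of Ppard, at a control level of 3.50, had a change of 0.18 that did not pass, and the mean of the probe sets rose by 0.54.

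**Figure D2:**
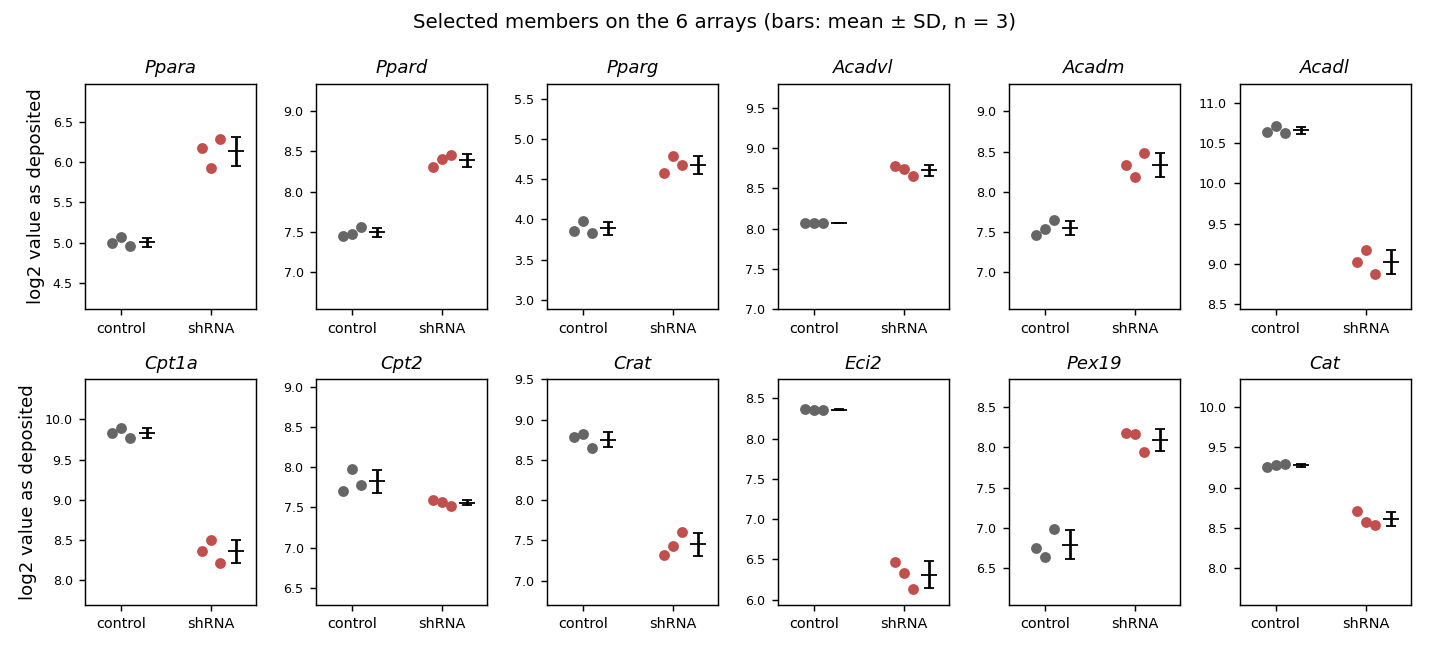
Log2 values as deposited (vertical axes, each spanning the same range) of 12 members on the control arrays (grey) and hairpin arrays (red), with the mean ± SD of 3 arrays beside the points. The PPAR receptors, Acadvl, Acadm and Pex19 are higher with the hairpin; Acadl, Cpt1a, Crat and Eci2 are lower, and Cpt2 and Cat are lower here but not after cyclic loess, which gave 0.26 and 0.06.

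Partners of the receptors moved in both directions. Among 14 measured partners and coactivators 6 rose (42.9%, against 43.6% of all genes), 7 fell (50%, against 41.5%) and 1 missed the threshold (median -0.18). In all 4 scalings 5 rose and 5 fell (35.7% each, against 25.5% and 26.4%). Ppargc1a, which encodes the coactivator PGC-1α, rose by 1.55, and Rxrg, a dimer partner, by 1.19. Ncoa3, a steroid receptor coactivator gene, rose by 1.16, whereas its relative Ncoa1 fell by 1.91. Nrip1, a corepressor gene, and Crebbp, a histone acetyltransferase gene, fell by 1.39 and 1.33. These 6 genes passed in the same direction in all 4 scalings, but where a gene's probe sets were averaged the changes were smaller for Ppargc1a (0.73), Ncoa3 (0.56) and Ncoa1 (-0.80).

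Genes of uptake, activation and the carnitine shuttle moved in both directions. Of the 18 members, 8 rose (44.4%, against 43.6% of all genes), 7 fell (38.9%, against 41.5%) and 3 did not pass. In all 4 scalings 1 rose, Mlycd (5.56%, against 25.5% of all genes), and 6 fell, Acsl3, Acsl4, Cpt1a, Crat, Crot and Acot7 (33.3%, against 26.4%). Its median change was 0.16, and became 0.10 on quantile-normalized values, 0.06 under cyclic loess and -0.06 under median centring. Cpt1a, the outer membrane palmitoyltransferase and main point of control of the shuttle, read 8.36, 8.50 and 8.22 on the hairpin arrays and 9.83, 9.89 and 9.77 on the control arrays. That is a change of -1.46 (SE 0.09, limma, adjusted p = 1.46e-07), and of -0.74 after cyclic loess. The other probe set of Cpt1a, at -0.09, did not pass, and the probe sets' average fell by 0.78. Crat, the carnitine acetyltransferase gene, fell by 1.31, from 8.75 ± 0.09 (SD, n = 3) to 7.45 ± 0.14, and by 0.67 after cyclic loess.

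Crot, the peroxisomal octanoyltransferase gene, fell by 0.59 and by 0.28 after cyclic loess, but its 3 probe sets did not share a direction. The others gave -1.85 from a control level of 8.08 and 1.08 from 4.57, and both passed. Cpt2, the inner membrane palmitoyltransferase, read 7.59, 7.57 and 7.52 on the hairpin arrays and 7.71, 7.98 and 7.78 on the control arrays. Its change of -0.26 (SE 0.09, limma, adjusted p = 0.0202) passed lower as deposited, but 0.30 after quantile normalization and 0.26 after cyclic loess passed higher. Without control replicate 2 the deposited change was -0.18 and did not pass (limma, adjusted p = 0.122). Cpt1b, the muscle form, passed at 0.42, and had 0.08 after cyclic loess, which did not pass. Cpt1c, the form known from neurons, passed at 0.25 as deposited, but not at 0.24 without control replicate 2 (limma, adjusted p = 0.052), and rose by 0.61 after cyclic loess. The within-array difference Cpt1a minus Cpt2 shifted by -1.20 and Cpt1a minus Cpt1b by -1.88, and after cyclic loess by -1.0 and -0.82, in neither case with overlap on the deposited values (exact permutation test, two-sided, p = 0.1, adjusted over 8 pairs p = 0.114). For Cpt1a minus Cpt1b the single genes fixed this outcome, since every hairpin array lay below the control arrays in Cpt1a and above them in Cpt1b. Single genes did not overlap in 87.1% of cases. The share among other gene pairs was not tested, here or for the paired differences below. Mlycd, whose enzyme breaks down malonyl-CoA, the inhibitor of the outer membrane transferase, rose in all 4 scalings. Its values were 7.52, 7.57 and 7.45 against 7.09, 7.09 and 6.99, a rise of 0.46 (SE 0.08, limma, adjusted p = 0.000325) and of 0.81 after cyclic loess.

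The acyl-CoA synthetase genes parted. Acsl4, whose enzyme prefers arachidonic acid, read 8.58, 8.52 and 8.42 on the hairpin arrays and 10.53, 10.41 and 10.46 on the control arrays, without overlap. Acsl3, a lipid droplet synthetase gene, read 7.18, 7.27 and 7.05 against 8.81, 8.90 and 8.86. Both fell, with changes of -1.96 and -1.69 (SE 0.08 and 0.09, limma, adjusted p = 1.05e-08 and 3.56e-08), and of -1.26 and -1.08 after cyclic loess. Acsl5, an intestinal and mitochondrial synthetase gene, had 0.05 and Acsl1, the main form in liver and fat, 0.12, neither of which passed, while after cyclic loess both rose, by 0.68 and 0.55. The other probe set of Acsl5 had -0.41, and those of Acsl1 had -1.33 and 0.39, all of which passed. Acsl6, known from brain, read 4.37, 3.90 and 4.69 against 3.75, 3.77 and 3.71, a change of 0.58 as deposited and of 0.14 after cyclic loess, which did not pass.

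The 4 genes of uptake and binding lay low on the scale, and their changes were 0.10 to 0.24 below the median change of all genes of their level. Fabp3, the heart-type fatty acid binding protein gene, read 5.97, 5.91 and 5.95 against 5.14, 5.37 and 5.20, and Fabp5, the epidermal type, read 5.11, 4.94 and 5.10 against 4.31, 4.61 and 4.23. Their changes of 0.70 and 0.67 passed as deposited (limma, adjusted p = 2.17e-05 and 0.000176), and those of 0.18 and 0.10 after cyclic loess did not. Fabp4, the adipocyte type, passed at 0.36 as deposited but not after quantile normalization (0.06), cyclic loess (0.04) or median centring (0.15), nor without AMPKα2 shRNA replicate 2 (0.22) or 3 (0.39) or control replicate 3 (0.29). Cd36, a fatty acid carrier gene, passed at 0.27 as deposited but in no other scaling, did not pass without AMPKα2 shRNA replicate 1 (0.23) or control replicate 1 (0.20), and had -0.04 after cyclic loess. For both, the hairpin arrays did not overlap the control arrays as deposited, but for Fabp4 the lowest hairpin and the highest control array both rounded to 3.40. The median change of genes at control levels below 4 was 0.52.

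Markers of fat, muscle and other cells moved alongside, most of them at control levels under 7, where 75.8% of all genes passed higher as deposited, 52.4% with quantile normalization and 45.7% with cyclic loess. All 7 measured adipocyte markers passed higher as deposited (5 with quantile normalization, 4 with cyclic loess), with a summed log2 level of 6.91 to 6.96 on the control arrays and 7.76 to 8.02 on the hairpin arrays. The 9 muscle markers did so as well (4 and 2 after those scalings), from 7.53 to between 8.27 and 8.29. Of 7 fibroblast markers 7 rose (5 after cyclic loess), with sums of 9.55 to 9.57 and 10.83 to 11.01, and of 5 endothelial markers 4 rose (3 after cyclic loess), with 6.61 to 6.90 and 7.26 to 7.57. Of 7 leukocyte markers 6 rose (5 after cyclic loess) and Cd14 fell, with sums of 10.85 to 10.95 and 9.58 to 9.75. Sums were taken on the unlogged scale, so the highest marker weighs most. For leukocytes this was Cd14, with means of 10.78 on the control and 9.08 on the hairpin arrays. For fibroblasts it was Col3a1 (9.21 and 10.71), and for kidney epithelium Krt8 (12.49 and 12.24). The adipocyte and muscle markers had control levels of at most 4.61 and 5.12, near the low end of a scale that starts at 2.37, so that none could read 0. Of 17 kidney epithelial markers 14 rose (7 after cyclic loess), 1 fell (Krt8, at 12.49 on the control arrays, with 0.10 after cyclic loess) and 2 did not pass, with sums of 12.58 to 12.65 on the control arrays and 12.42 to 12.57 with the hairpin. Their control levels ran from 2.96 to 12.49. In all 4 scalings 7 of the 17 passed higher (41.2%, against 25.5% of all genes) and 0 lower. Among the 7 were Aqp1, Pax8 and Slc5a2, with control levels of 6.18, 6.57 and 5.44. Epcam and Krt18, which epithelial cells usually express, stood at 2.97 and 3.53 on the control arrays. The part of other cell types in the changes of Pparg, Fabp3, Fabp4, Cd36 and Cpt1b was not tested.

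The thioesterases, which release free fatty acids from coenzyme A, differed by gene. Acot7, a cytosolic form, read 8.63, 8.66 and 8.35 against 10.02, 9.89 and 9.95 and fell by 1.41 (SE 0.10, limma, adjusted p = 3.40e-07), and by 0.69 after cyclic loess. Its other probe set, at a control level of 4.63, had 0.20, which did not pass. Acot1, another cytosolic form and a close paralog of Acot2, had 0.19, which passed in none of the 4 scalings. Acot2, the mitochondrial form, read 8.27, 8.27 and 8.19 against 7.27, 7.32 and 7.33 on the control arrays. It rose by 0.94 (SE 0.08, limma, adjusted p = 1.03e-06), while its other probe sets, at control levels of 4.35 and 4.29, had 0.18 and 0.32 and did not pass; the average of its probe sets rose by 0.48. Values of Acot1 and Acot2 are uncertain, since their transcripts are alike and probes could bind both.

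Mitochondrial oxidation genes moved in both directions, and their balance turned with the scaling. Of 20 members 5 rose (25%, against 43.6% of all genes), 11 fell (55%, against 41.5%) and 4 missed the threshold, and the median was -0.43. Quantile normalization gave 12 rises (60%, against 43.8% of all genes) and 4 falls (20%, against 28.9%), with a median of 0.23. Cyclic loess gave 11 rises (55%, against 40.2%) and 6 falls (30%, against 31.5%), with a median of 0.20. Median centring gave 5 rises and 14 falls (median -0.64), where 35% of all genes rose and 48.2% fell. In all 4 scalings 5 rose, Acadm, Acadvl, Acad11, Acadsb and Acot2 (25%, against 25.5% of all genes), and 4 fell, Acadl, Acaa2, Hsd17b10 and Decr1 (20%, against 26.4%).

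The acyl-CoA dehydrogenases open each round of oxidation and differ in the chain length they take. Acadl, the long-chain form, read 9.03, 9.17 and 8.87 on the hairpin arrays and 10.64, 10.71 and 10.63 on the control arrays. It fell by 1.64 (SE 0.09, limma, adjusted p = 7.26e-08), and by 0.97 after cyclic loess. Acadm, the medium-chain form, read 8.34, 8.19 and 8.48 against 7.47, 7.54 and 7.65, and Acadvl, the very-long-chain form, 8.78, 8.74 and 8.65 against 8.07 on each control array. These rose by 0.78 and 0.66 (SE 0.10 and 0.08, limma, adjusted p = 1.90e-05 and 1.64e-05), and by 1.38 and 1.34 after cyclic loess. Genes at the control level of Acadm had a median change of -0.39 and those at the level of Acadvl one of -0.74, so both stood against the trend. The log2 difference Acadm minus Acadl, taken within each array, shifted by 2.42 with the hairpin, and Acadvl minus Acadl by 2.30. Median centring moves all genes of an array alike, so it cannot change a within-array difference and is no check here. Quantile normalization gave shifts of 2.37 and 2.33, and cyclic loess 2.35 and 2.31. Neither difference overlapped between the groups on the deposited values, at the smallest p this design allows (exact permutation test, two-sided, p = 0.1, adjusted over 8 pairs p = 0.114). The single genes fixed this outcome, since every hairpin array lay above the control arrays in Acadm and Acadvl and below them in Acadl. The test therefore adds nothing to the single genes here. Of all single genes 87.1% did not overlap, and the share among other gene pairs was not tested.

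Acad11, a form that takes longer and modified chains, read 6.72, 6.65 and 6.90 against 5.51, 5.50 and 5.44. It rose by 1.27 (SE 0.09, limma, adjusted p = 3.04e-07), and by 0.97 after cyclic loess. Acadsb, the short branched-chain form, read 5.54, 5.42 and 5.65 against 4.32, 4.66 and 4.68, and rose by 0.98 (SE 0.11, limma, adjusted p = 1.03e-05), and by 0.38 after cyclic loess. Acads, the short-chain form, had -0.08, which did not pass, and passed higher after cyclic loess at 0.55 and lower after median centring at -0.30. Acad9, which also helps assemble respiratory complex I, passed lower as deposited at -0.46 and higher after cyclic loess at 0.19. Of the 7 dehydrogenase genes 4 thus rose, 2 fell and 1 did not pass as deposited, and after cyclic loess 6 rose and Acadl fell (57.1% and then 85.7% rose, against 43.6% and 40.2% of all genes). Median centring gave 4 rises and 3 falls, where 35% of all genes rose and 48.2% fell.

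None of the 7 genes of hydration, the further oxidation and thiolysis rose as deposited, 6 fell and 1 did not pass, but after cyclic loess 3 rose and 3 fell. Their control levels were 8.30 to 10.13. Of all genes at 7 or more, 11.3% rose and 72.6% fell as deposited, and 34.8% rose and 45.2% fell after cyclic loess. Acaa2, the mitochondrial thiolase gene, read 7.07, 7.32 and 7.10 against 8.56, 8.66 and 8.78, a fall of 1.51 (SE 0.10, limma, adjusted p = 1.66e-07) that was 0.92 in size after cyclic loess. Its other probe set, at a control level of 4.56, rose by 0.87, and the mean of the probe sets fell by 0.32. Hsd17b10, a hydroxyacyl-CoA dehydrogenase gene that also serves in mitochondrial RNase P, read 8.95, 9.06 and 8.66 against 9.91, 10.00 and 9.99. It fell by 1.08 (SE 0.11, limma, adjusted p = 3.64e-06), and by 0.37 after cyclic loess. Echs1, the short-chain hydratase gene, and Acat1, a thiolase gene of short chains and ketone bodies, both passed lower at -0.43, but higher after cyclic loess at 0.21 and 0.28. Hadh, a hydroxyacyl-CoA dehydrogenase gene, had 0.18, which did not pass, and 0.86 after cyclic loess, and its other probe set rose by 1.15.

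The trifunctional protein, which carries out the last 3 steps for long chains, is built from the products of Hadha and Hadhb. Their changes were -0.93 (SE 0.10) and -0.82 (SE 0.08) as deposited, both of which passed (limma, adjusted p = 7.06e-06 and 3.55e-06), and -0.21 and -0.13 after cyclic loess, of which the first passed. Hadha read 8.47, 8.70 and 8.33 against 9.44, 9.45 and 9.41, and Hadhb 9.34, 9.37 and 9.23 against 10.12, 10.11 and 10.16. The difference Hadha minus Hadhb was -0.87, -0.68 and -0.90 on the hairpin arrays and -0.69, -0.66 and -0.75 on the control arrays. It shifted by -0.12, the groups overlapped, and a difference between the subunit genes was not shown (exact permutation test, two-sided, p = 0.3, adjusted over 8 pairs p = 0.3). Both other probe sets of Hadha rose, by 0.94 and 0.74, from control levels of 4.66 and 5.21.

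These genes stand head to head. In RefSeq (GRCr8) Hadha starts at base 31907801 of chromosome 6 on the plus strand and Hadhb at base 31907500 on the minus strand, with 300 bases between the starts, and their promoter windows share 200 bases. The 250 bases before the Hadha start are shown because they lie upstream of both genes, in the direction of Hadha, with GGGCGG, here read on the opposite strand, in capitals. It occurs 1 time, and CCAAT 0 times.
Hadha (chr6:31907551-31907800, plus strand): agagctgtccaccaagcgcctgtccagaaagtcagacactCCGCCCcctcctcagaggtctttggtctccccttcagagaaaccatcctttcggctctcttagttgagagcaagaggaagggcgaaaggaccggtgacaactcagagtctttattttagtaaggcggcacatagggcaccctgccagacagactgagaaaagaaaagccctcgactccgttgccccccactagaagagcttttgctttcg

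Among enzymes that handle double bonds, Decr1, Eci2 and Decr2 passed lower in all 4 scalings. Decr1, the mitochondrial dienoyl-CoA reductase gene, read 8.34, 8.34 and 8.12 against 9.77, 9.76 and 9.81, a fall of 1.51 (SE 0.09, limma, adjusted p = 8.80e-08), and of 0.79 after cyclic loess. Eci2, an enoyl-CoA isomerase gene of peroxisomes and mitochondria, had the lowest change of the 54 members in all 4 scalings. It read 6.47, 6.33 and 6.13 against 8.37, 8.36 and 8.35, a fall of 2.06 (SE 0.10, limma, adjusted p = 1.96e-08), and of 1.68 after cyclic loess. Eci1, the mitochondrial isomerase gene, had -0.20, which did not pass, but passed higher after quantile normalization at 0.20 and lower after median centring at -0.42. Its other probe set rose by 1.01. The difference Eci1 minus Eci2 shifted by 1.85, by 1.98 after quantile normalization and by 1.82 after cyclic loess. It did not overlap on the deposited values (exact permutation test, two-sided, p = 0.1, adjusted p = 0.114), nor did 87.1% of single genes. Decr2, the peroxisomal reductase gene, had -0.28, and -0.47 after cyclic loess. The difference Decr1 minus Decr2 shifted by -1.23, and by -0.32 after cyclic loess (exact permutation test on the deposited values, two-sided, p = 0.1, adjusted p = 0.114). The arrays of Decr2 overlapped between the groups, and it did not pass without AMPKα2 shRNA replicate 2 (-0.21) or 3 (-0.25) or control replicate 1 (-0.22) or 2 (-0.25).

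Of the genes that pass electrons on, Etfa and Etfb encode the subunits of the electron transfer flavoprotein and Etfdh its oxidoreductase. Etfa had -0.69 and Etfdh -0.59, which passed as deposited, and 0.02 and -0.27 after cyclic loess, of which the second passed. Etfb had 0.01, which did not pass, rose by 0.73 after cyclic loess and passed lower after median centring at -0.20. The difference Etfa minus Etfb was 0.48, 0.29 and 0.18 on the hairpin arrays and 1.03, 1.04 and 1.0 on the control arrays. It shifted by -0.71, with -0.70 under quantile normalization and -0.71 under cyclic loess. On the deposited values it did not overlap (exact permutation test, two-sided, p = 0.1, adjusted p = 0.114).

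Of the 13 peroxisomal genes read, 3 rose (23.1%, against 43.6% of all genes), 8 fell (61.5%, against 41.5%) and 2 missed the threshold, with the median at -0.43. Median centring gave 1 rise and 8 falls (median -0.65), where 35% of all genes rose and 48.2% fell. Cyclic loess gave 3 rises (23.1%, against 40.2% of all genes) and 4 falls (30.8%, against 31.5%), with a median of 0.01. Quantile normalization gave 3 rises (23.1%, against 43.8% of all genes) and 3 falls (23.1%, against 28.9%), with a median of 0.02. Beside Eci2 and Decr2, 2 genes passed in 1 direction in all 4 scalings, and both encode peroxins. Pex19, which carries membrane proteins to the peroxisome, read 8.18, 8.17 and 7.94 against 6.75, 6.64 and 6.99. It rose by 1.31 (SE 0.11, limma, adjusted p = 1.07e-06), and by 1.73 after cyclic loess, where genes of its level had a median deposited change of 0.19. Pex11a, which promotes peroxisome division, read 6.15, 6.22 and 6.17 against 6.86, 6.80 and 7.05. It fell by 0.72 (SE 0.09, limma, adjusted p = 2.09e-05), and by 0.78 after cyclic loess, and its other probe set had -0.28, which did not pass.

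The other 3 listed peroxins kept no call over the scalings. Pex5, the receptor gene for enzyme import, passed lower at -0.43 as deposited and higher at 0.26 after cyclic loess, and a second probe set rose by 1.04. Pex13, of the docking complex, passed lower at -0.59, and had 0.12 after cyclic loess, which did not pass. Pex14, its partner there, had 0.21, which did not pass, and rose by 0.58 after cyclic loess. Of 8 measured peroxin genes outside the list, 3 rose (37.5%, against 43.6% of all genes) and 4 fell (50%, against 41.5%), and 2 rose (25%, against 25.5%) and 4 fell (50%, against 26.4%) in all 4 scalings. Pex16, of membrane assembly, rose by 0.80 and Pex26 by 0.44, whereas Pex7, the other import receptor gene, fell by 1.43, Pex2 by 0.96 and Pex3 by 0.82.

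Peroxisomal oxidation enzymes and catalase gave no direction that held. Hsd17b4, the bifunctional protein of branched chains, read 7.98, 7.86 and 7.72 against 8.60, 8.55 and 8.51, a change of -0.70 (SE 0.09, limma, adjusted p = 2.81e-05) that was -0.05 after cyclic loess. Cat, the catalase gene, read 8.71, 8.58 and 8.54 against 9.26, 9.28 and 9.29, a change of -0.67 (SE 0.08, limma, adjusted p = 1.99e-05) that was 0.06 after cyclic loess. Ehhadh, the other bifunctional protein gene and a known PPARα target, read 4.39, 3.99 and 4.01 against 3.85, 3.47 and 3.76, a change of 0.43 that was 0.01 after cyclic loess. Acox2, the oxidase gene of branched chains, read 4.41, 4.48 and 4.17 against 4.11, 4.0 and 4.21, which overlap. Its change of 0.24 passed as deposited, but not without AMPKα2 shRNA replicate 1 (0.22) or 2 (0.18) or control replicate 1 (0.24) or 2 (0.19), and was -0.24 after cyclic loess. Acox3, another oxidase gene, had 0.16, which did not pass, and -0.43 after cyclic loess, which did. Acot8, the peroxisomal thioesterase gene, passed lower at -0.52, and had 0.10 after cyclic loess, which did not pass.

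Of 26 other peroxisomal enzyme and transporter genes, 10 rose (38.5%, against 43.6% of all genes), 11 fell (42.3%, against 41.5%) and 5 did not pass. In all 4 scalings 7 rose and 7 fell (26.9% each, against 25.5% and 26.4%). Scp2, a lipid carrier and thiolase gene, fell by 2.00, Pecr, an enoyl-CoA reductase gene, by 1.60 and Abcd3, an importer gene, by 1.47. Uox, the urate oxidase gene, rose by 1.51, the membrane protein gene Pxmp4 by 1.43 and Idh1, an NADPH-forming dehydrogenase gene, by 1.33. Each of these 6 passed in all 4 scalings.

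**Figure D3:**
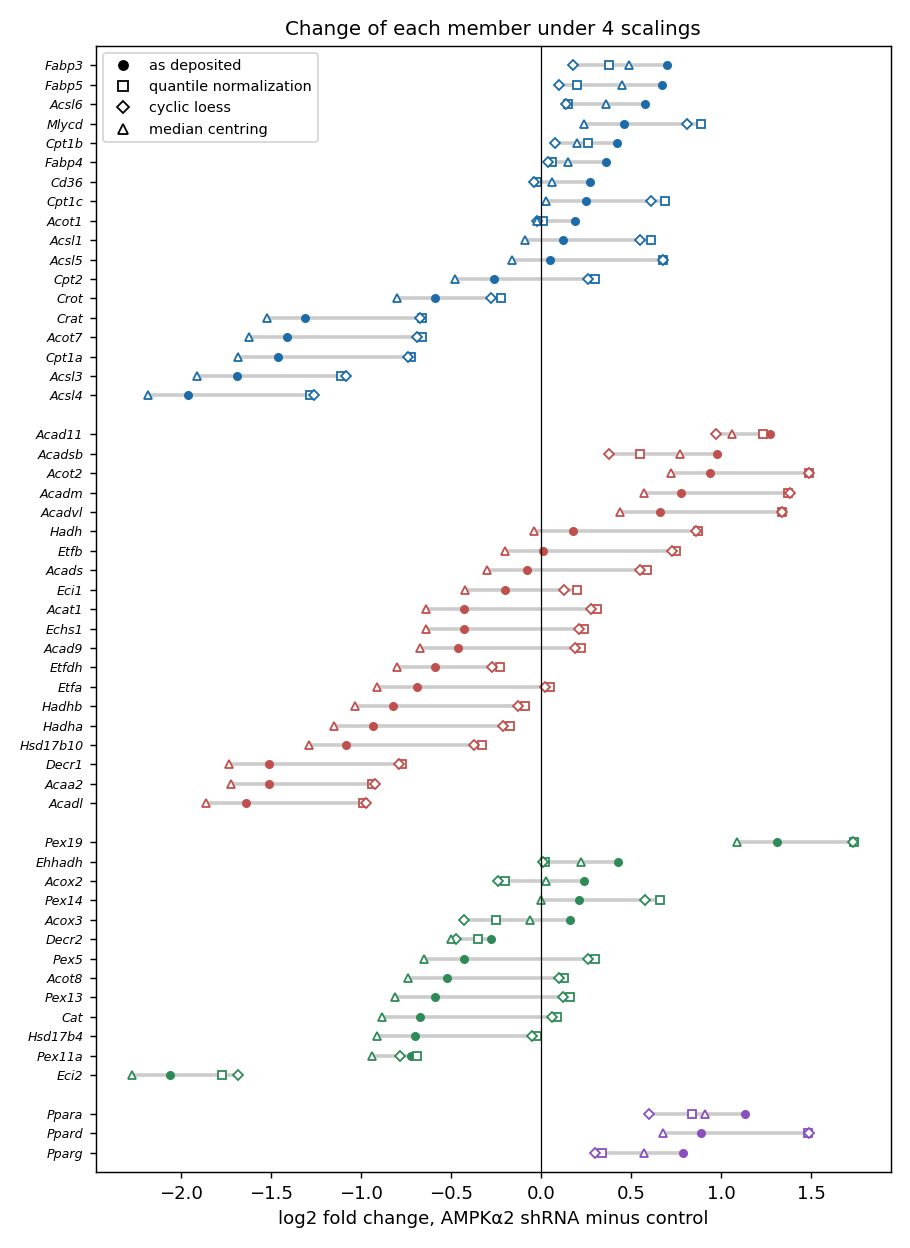
Log2 fold change of each measured member (horizontal axis, AMPKα2 shRNA minus control) on the deposited values and after quantile normalization, cyclic loess or median centring; blue is uptake, activation and the carnitine shuttle, red mitochondrial, green peroxisomal and purple the PPAR receptors. Bars that cross 0 mark members whose sign turned, such as Cpt2, Echs1 and Pex5, and 10 members passed higher and 13 lower in all 4 scalings.

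Among genes of lipid supply and known PPAR targets outside the list, 14 of 24 rose (58.3%, against 43.6% of all genes), 7 fell (29.2%, against 41.5%) and 3 missed the threshold (median 0.48). In all 4 scalings 10 rose (41.7%, against 25.5%) and 5 fell (20.8%, against 26.4%). Slc27a4, a fatty acid transporter gene, rose by 1.30, and Lipe and Plin4, of lipolysis and the lipid droplet coat, rose by 0.98 each. Abhd5, an activator of lipolysis, fell by 1.56, Plin2, the common droplet coat gene, by 1.29 and Oxct1, of ketone use, by 1.05. Of 19 genes of fatty acid synthesis, 6 were up (31.6%, against 43.6% of all genes) and 10 down (52.6%, against 41.5%). Another 3 were short of the threshold. Across all 4 scalings, 3 rose (15.8%, against 25.5%) and 6 fell (31.6%, against 26.4%). Agpat2, of glycerolipid synthesis, fell by 2.12, Scd2, a desaturase gene, by 1.19 and Elovl1, an elongase gene, by 1.10. Scd, another desaturase gene, rose by 1.01, Mlxipl, a sugar-sensing transcription factor gene, by 0.98 and Thrsp, a lipogenic regulator gene, by 0.94. These 12 genes passed in the same direction in all 4 scalings, and Scd2 had -0.46 with its probe sets averaged.

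The changes of the members followed their control levels as those of all genes did. Of 17 members with a control level under 7, 13 rose (76.5%, against 75.8% of all 7122 such genes) and 2 fell (11.8%, against 10.5%), and the median was 0.43 against 0.63. Of 37 members at 7 or more, 6 rose (16.2%, against 11.3% of all 7095 such genes) and 24 fell (64.9%, against 72.6%), and the median was -0.52 against -0.68. The 6 that rose at those levels were Mlycd, Acadm, Acadvl, Acot2, Ppard and Cpt1c, and the first 5 of these rose in all 4 scalings, as 7.26% of all genes at 7 or more did.

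**Figure D4:**
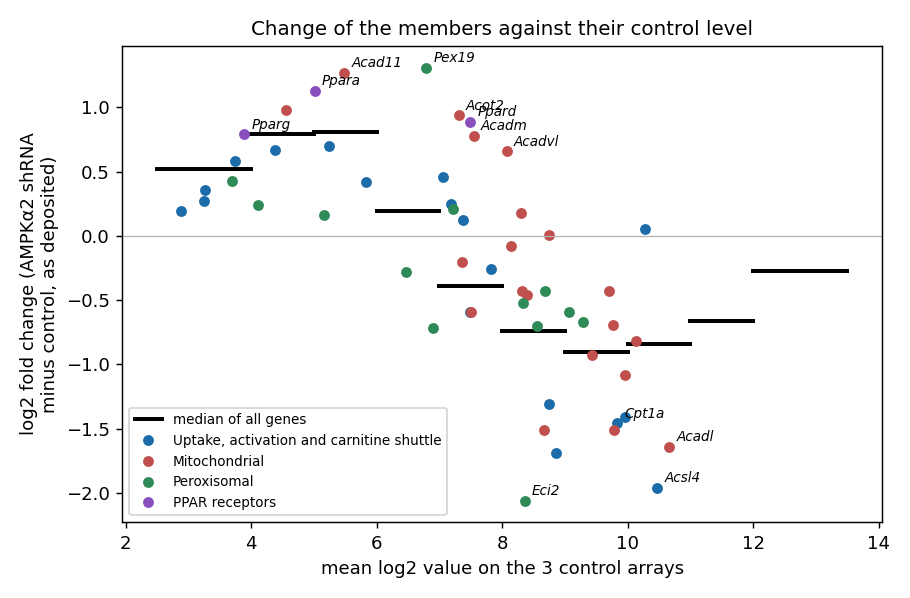
Log2 fold change as deposited (vertical axis, AMPKα2 shRNA minus control) of each member against its mean log2 value on the 3 control arrays, coloured by compartment; black bars are medians of all genes in each range of level. Ppard, Acadm, Acadvl and Acot2 lie above the bars of their level, and Eci2, Acsl4 and Acadl below.

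Several genes were read by more than 1 probe set. Of 15 such members, 5 were called higher by one probe set and lower by another (Acaa2, Acsl1, Crot, Hadha and Pex5), where 20.5% of all such genes did, and 2 (Acat1 and Acsl6) had probe sets that all passed in 1 direction. In the other 8 at least 1 probe set did not pass. Which transcript forms the probe sets read was not tested. The other 39 members had 1 probe set each, among them Acsl4, Acadl, Acadm, Acadvl, Eci2, Pex19, Ppara and Pparg.

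**Figure D5:**
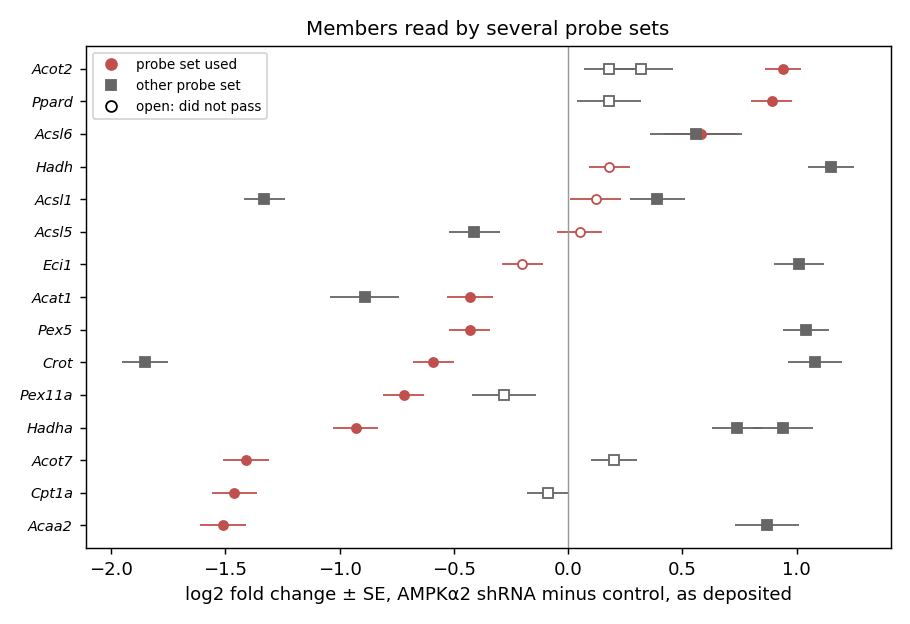
Log2 fold change ± SE as deposited (horizontal axis, AMPKα2 shRNA minus control; 3 arrays against 3) of every probe set of the 15 members with more than 1; red circles are the probe sets used, grey squares the others, and open symbols did not pass. Acaa2, Crot, Hadha and Pex5 have filled symbols on both sides of 0, and Acsl1 has filled squares on both sides.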

How the data were processed

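Total RNA of 6 cultures was labelled with a one-cycle Affymetrix kit, per the labels' protocols. The authors deposited log2 expression values, 1 per probe set and array, from 2.37 to 13.84 with 0 missing; background correction, summarisation and scaling are not given in the sources used here, and the distributions differ between groups. Of 31099 probe sets 57 were array controls. Of the others, 20826 had 1 annotated gene, 436 several and 9780 none, and only the first were used. Entrez identifiers matched 20758 of these to RefSeq GRCr8, with 0 symbols changed. The 14217 genes were fitted together in limma 3.58.1 (R 4.3.3; lmFit, eBayes, two-sided, no filter, no covariate, Benjamini-Hochberg over all genes, threshold 0.05). A gene passed in all 4 scalings if it did so in 1 direction as deposited, after quantile normalization, cyclic loess (3 iterations) and median centring. Group medians are descriptions without a test.

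Members, compartments, lists and gene pairs were chosen with earlier results of these data known. All members could be named, with values on every array for the PPAR receptors, Cpt1a, Cpt2, Cat and up to 4 rising and 4 falling genes of each compartment with the largest change, and for Acadvl, Hadha, Hadhb and the paired differences, added after their values were seen. From other lists up to 3 genes in each direction were named, and the kidney epithelial markers Epcam and Krt18 besides. The fit was also run on simulated arrays with few genes changed and no shift tied to level. Both differ from these data, so the simulation is no check on the calls made here. Alternatives are listed in the closing section.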

Additional observations from a re-analysis of the deposited data

How the results depend on the processing

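The counts of 19 members higher and 26 lower ranged from 17 to 19 and from 24 to 27 when each array was left out, and the compartment medians from 0.13 to 0.21 (shuttle), -0.47 to -0.35 (mitochondrial), -0.47 to -0.40 (peroxisomal) and 0.86 to 0.94 (PPAR receptors). Same-numbered arrays of the groups did not deviate together (correlations of -0.021, 0.014 and -0.098), so the numbers were not taken as pairs; with the replicate number as a block 18 members were higher and 26 lower. Scaling moved more. Members lower numbered 13 after quantile normalization and 16 after cyclic loess; medians became 0.23 and 0.20 (mitochondrial) and 0.02 and 0.01 (peroxisomal), and that of the receptors 0.60 after cyclic loess. Median centring gave -0.06 (shuttle), -0.64 (mitochondrial), -0.65 (peroxisomal) and 0.68 (receptors). Without the lowest 25% or 50% of genes, which leaves 44 and 38 members, 11 and 7 were higher, with shuttle medians of -0.26 and -0.59, and a receptor median of 1.01 at 25%. The shuttle median was 0.00 with a floor of 4. With the mean of probe sets the 4 medians were 0.01, -0.20, -0.28 and 0.79, and with the most variable probe set the first 3 were -0.03, -0.25 and -0.28.

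Among members and the genes named by rule, signs that turned are given where the change passed before or after; members that missed the threshold both times also turned, such as Acox3 (-0.25) after quantile normalization, Eci1 (0.13) after cyclic loess, Acsl1 (-0.09), Acsl5 (-0.16) and Hadh (-0.04) after median centring and Acsl5 (-0.18) with the mean of probe sets. Signs turned after quantile normalization and cyclic loess for Cd36 (-0.02 and -0.04), Cpt2 (0.30 and 0.26), Acads (0.59 and 0.55), Acad9 (0.22 and 0.19), Echs1 (0.24 and 0.21), Acat1 (0.31 and 0.28), Etfa (0.05 and 0.02), Acox2 (-0.20 and -0.24), Acot8 (0.13 and 0.10), Cat (0.09 and 0.06), Pex5 (0.30 and 0.26) and Pex13 (0.16 and 0.12). They also turned after quantile normalization for Eci1 (0.20), after cyclic loess for Acox3 (-0.43), Pex11g (-0.10) and Krt8 (0.10), and after median centring for Etfb (-0.20). With the mean of probe sets Acsl1 (-0.27), Hadha (0.25), Eci1 (0.40) and Pex5 (0.30) turned, and with the most variable probe set Acsl1 (-1.33), Acsl5 (-0.41), Hadha (0.94), Eci1 (1.01) and Pex5 (1.04). The cause was not tested. An intensity trend, robust variance, array weights and a threshold of 0.01 turned 0 such signs and kept both counts within 1.5 times. Signal over background was not used here, so low probe sets cannot be told from background.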
